A study of Homo sapiens with 6 samples.

Results

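DNA methylation at 4 genes known for methylation in cancers, SEPTIN9, SOCS3, DAPK1 and MGMT, was examined in HepG2, an established human liver cancer cell line. One group was infected with a lentivirus to overexpress DNMT3A, an enzyme that places new methyl groups on CpG sites, and the other with a control lentivirus, with 3 libraries in each. Both groups were HepG2 cells that had taken up a lentivirus; the promoter that drives DNMT3A in the virus is not given in the sources used here, and nothing in the labels says that replicate libraries are separate cultures. The assay was RRBS, reduced representation bisulfite sequencing, in which the enzyme MspI cuts at CCGG, so that CpG-rich fragments are enriched, and bisulfite converts unmethylated cytosines. The authors deposited 3 lists of differentially methylated regions, called pairs 1 to 3 here, each setting an overexpressing library against the control library with the same number.

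A region counted for a gene when it overlapped a window drawn around that gene on hg38. This took 17 of the 4344 listed regions: 10 in SEPTIN9, 3 in SOCS3, 2 in DAPK1 and 2 in MGMT. Overlapping regions of different lists were joined, which left 9 distinct regions of 3313 in all. The genes were chosen by results of these same lists, and each region is in a list because its levels in the 2 libraries were called different. The levels below are therefore a description and carry no test. The nearest listed region beyond the SEPTIN9 window lay 157 kb away and was higher by 0.307 in pair 1, and the nearest beyond the SOCS3 window lay 60.4 kb away and was higher by 0.358 in pair 1. At MGMT the nearest one lay 419 kb outside, with a difference of 0.208 in pair 1. At DAPK1 it lay 296 kb outside, with a difference of -0.346 in pair 3. Both were opposite in direction to the listed regions of their gene. Wider windows, with 10 kb on either side of the RefSeq genes, took the same numbers of higher and lower regions, but windows cut at the gene ends lose 1 of the 2 MGMT regions, which lies upstream of the gene.

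SEPTIN9 encodes a septin, a GTP-binding protein that assembles into cytoskeletal filaments, and its methylated DNA in blood plasma is used as a marker of colorectal cancer. SOCS3 is a feedback inhibitor of cytokine signalling through JAK kinases and STAT factors, and its methylation has been described in liver cancer. DAPK1 is a calmodulin-regulated kinase that promotes cell death, and MGMT is a DNA repair protein that removes alkyl groups from guanine. Methylation of the MGMT promoter is used in glioblastoma as a marker of response to alkylating drugs. In such genes dense methylation of a CpG-rich promoter goes with silencing of transcription, whereas methylation inside a gene body has no such fixed relation to expression. Expression was not measured here, so neither DNMT3A overexpression nor any effect on these genes could be checked at the RNA level.

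The regions near transcription starts are shown beside the bases that lead up to those starts. The sequences are the 250 bases upstream of the RefSeq start nearest to the region, on GRCh38.p14 and in the direction of transcription, with every CpG in capitals. They come from chr17:77373087-77373336 on the plus strand for SEPTIN9, chr17:78359668-78359917 on the minus strand for SOCS3, chr9:87498332-87498581 on the plus strand for DAPK1 and chr10:129466991-129467240 on the plus strand for MGMT.
SEPTIN9: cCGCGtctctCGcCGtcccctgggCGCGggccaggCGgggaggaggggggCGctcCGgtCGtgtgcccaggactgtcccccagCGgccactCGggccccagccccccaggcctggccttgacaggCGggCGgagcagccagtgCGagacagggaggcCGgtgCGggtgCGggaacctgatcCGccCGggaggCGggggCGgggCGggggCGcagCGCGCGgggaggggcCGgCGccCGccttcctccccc
SOCS3: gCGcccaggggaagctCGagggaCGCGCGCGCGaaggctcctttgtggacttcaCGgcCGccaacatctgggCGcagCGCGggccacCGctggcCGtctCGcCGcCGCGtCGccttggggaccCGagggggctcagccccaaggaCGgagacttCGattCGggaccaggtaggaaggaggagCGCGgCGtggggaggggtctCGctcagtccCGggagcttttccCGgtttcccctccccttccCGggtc
DAPK1: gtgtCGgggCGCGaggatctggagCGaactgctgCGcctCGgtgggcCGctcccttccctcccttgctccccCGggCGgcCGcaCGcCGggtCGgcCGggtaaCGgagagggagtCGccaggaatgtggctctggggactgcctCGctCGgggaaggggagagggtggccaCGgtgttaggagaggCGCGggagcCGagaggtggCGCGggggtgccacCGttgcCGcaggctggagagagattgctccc
MGMT: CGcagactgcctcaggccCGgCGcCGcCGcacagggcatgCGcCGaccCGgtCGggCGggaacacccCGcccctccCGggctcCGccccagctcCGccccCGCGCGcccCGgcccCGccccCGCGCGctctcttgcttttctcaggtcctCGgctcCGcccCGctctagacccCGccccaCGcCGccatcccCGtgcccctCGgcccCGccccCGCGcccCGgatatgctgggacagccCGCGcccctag

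The printed runs hold 30 CpGs for SEPTIN9, 30 for SOCS3, 26 for DAPK1 and 36 for MGMT. The MspI motif CCGG, which reads the same on both strands and always holds a CpG, occurs in them 4, 3, 3 and 5 times. Over the whole RefSeq windows, from 250 bases before a start to 50 after it, the 4 hold 32, 34, 33 and 45 CpGs, against a median of 14 over 35116 such windows, of which 63.1% hold a CCGG. The MGMT window has more CpGs than 96.5% of all windows, and the other 3 have more than 81.1% to 84.4%. No listed region of the 4 genes overlapped a RefSeq start window, so the listed regions lie beside these sequences and not in them.

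Most regions of the 4 genes were more methylated in the overexpressing library. The count was 6 higher and 1 lower in pair 1, 5 higher and 0 lower in pair 2, and 4 higher and 1 lower in pair 3, or 15 higher and 2 lower in all. Both lower regions were at MGMT. Across the whole lists 82.1%, 81.7% and 81.1% of regions were higher in pairs 1, 2 and 3, and 17.9%, 18.3% and 18.9% were lower. The 4 genes together thus had a split near that of the lists, and what set them apart from each other was that SEPTIN9, SOCS3 and DAPK1 had listed gains only and MGMT listed losses only. Mapped reads were 29924507, 27958476 and 25764323 in overexpressing libraries 1, 2 and 3, and 29269281, 26912596 and 27197410 in control libraries 1, 2 and 3. Pair 1, with the most reads in both groups, also had the most member regions, and whether depth set this was not tested. Without pair 1, 9 higher regions and 1 lower one were left.

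**Figure D1:**
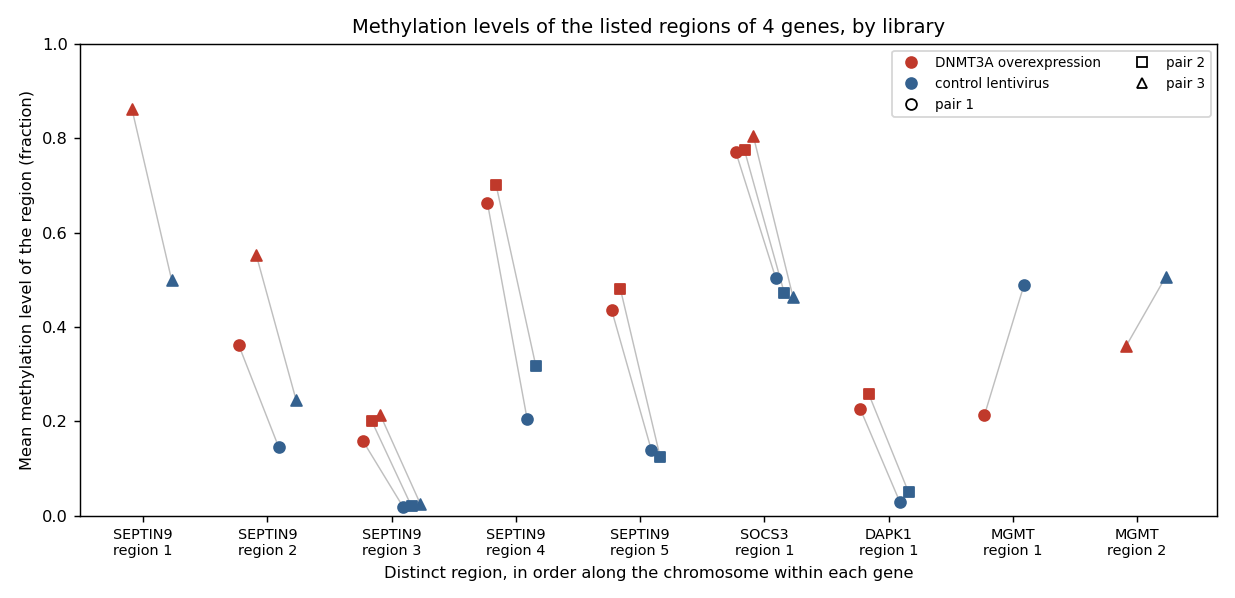
Mean methylation level (fraction, y axis) of the 9 distinct regions (x axis) in each overexpressing library (red, left) and control library (blue, right); marker shape gives the pair and a grey line joins the libraries of a pair, with no error bars because each point is 1 library. Red points lie above blue ones at every SEPTIN9, SOCS3 and DAPK1 region and below them at both MGMT regions.

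Of the 9 distinct regions, 6 were listed in at least 2 pairs, and 2 of these, at SEPTIN9 and SOCS3, in all 3. Among all distinct regions 21.8% were listed in at least 2 pairs and 8.21% in 3. Recurrence was part of what brought these genes to attention, so this comparison is no evidence about them. Leaving out pair 1 left 2 regions listed in both remaining pairs, leaving out pair 2 left 3, and leaving out pair 3 left 5. At all 6 recurrent regions the lowest overexpressing library lay above the highest control library. Each was listed because the libraries of its pair differed, so this separation describes the regions and is no result about the genes. The same count was not made over the other recurrent regions of the lists. Reads per region were not listed, so no level has a depth or an interval.

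SEPTIN9, on the plus strand of chromosome 17 at 77281499-77500596, had 10 listed regions at 5 places spread over its 219 kb, all higher. Of 20056 protein-coding genes, 1773 had a listed region within 1 kb and 14 had more than SEPTIN9. It is also a long gene: of 1399 protein-coding genes of at least 200 kb, 299 had a listed region and 6, SEPTIN9 among them, had 10 or more. The 5 places lay inside the gene and over a wide range of starting levels, from 0.0193 to 0.499 in the controls, and reached 0.158 to 0.862 in the overexpressing libraries.

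The longest region of SEPTIN9, region 3, lay at chromosome 17: 77373714-77374581 in pair 2, 77373863-77374581 in pair 1 and 77374394-77374537 in pair 3. In pair 2 it began 377 bp downstream of the RefSeq start whose upstream bases are printed above, which is 1 of 10 starts of this gene. Its level was 0.158, 0.2001 and 0.213 in overexpressing libraries 1, 2 and 3, against 0.0193, 0.0196 and 0.0252 in control libraries 1, 2 and 3. The controls were nearly unmethylated there and every overexpressing library stood above every control. The levels averaged 0.190 ± 0.0288 in overexpressing and 0.02135 ± 0.00335 in control libraries (SD, n = 3 each), with differences of 0.138, 0.181 and 0.187, or 0.169 ± 0.0265 (SD, n = 3 pairs). As a difference this was modest: it exceeded only 8.30%, 18.5% and 20.03% of the gains of pairs 1, 2 and 3. The region was among the largest by extent, however. In pair 2 it covered 868 bp and 92 CpG cytosines, counted on each strand separately. Its area score, a deposited value whose formula is not given in the sources used here, ranked 4 of 1171 gains. In pair 1 it covered 719 bp with 61 cytosines and ranked 24 of 1217, and in pair 3 the shorter call of 144 bp with 22 cytosines ranked 144 of 1158. The bases common to all 3 calls number 144, so the levels of pairs 1 and 2 average over much sequence that pair 3 did not list.

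Region 4 of SEPTIN9, at chromosome 17: 77388485-77388646 in pair 1 and 77388497-77388552 in pair 2, showed the largest gains of the gene. It lay 12402 bp downstream of the nearest RefSeq start of SEPTIN9 and also inside LOC124904062, a long noncoding RNA gene at 77387380-77388752. Levels were 0.664 and 0.701 in overexpressing libraries 1 and 2, against 0.205 and 0.318 in control libraries 1 and 2. The differences of 0.459 and 0.384 exceeded 91.1% and 84.2% of the gains of their lists. This region was CpG-poor, with 9 cytosines over 162 bp in pair 1 and 4 over 56 bp in pair 2, the smallest number of cytosines that any list holds.

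Region 5, at chromosome 17: 77455293-77455384, lay near the 3′ part of the gene, 174 kb from its 5′ end and 1266 bp downstream of a RefSeq start. Levels were 0.436 and 0.481 in overexpressing libraries 1 and 2, against 0.139 and 0.125 in control libraries 1 and 2. The boundaries of the calls in pairs 1 and 2 differed by 1 bp, so these levels come from the same bases, and the differences of 0.297 and 0.356 lay above the lists' median gains of 0.264 and 0.266.

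The remaining places, regions 1 and 2, lay 35.0 kb and 41.6 kb from the 5′ end of SEPTIN9. Region 2, at chromosome 17: 77322923-77323239 in pair 3 and 77323125-77323238 in pair 1, stood at 0.361 and 0.553 in overexpressing libraries 1 and 3, against 0.146 and 0.246 in control libraries 1 and 3. Both levels were higher in pair 3, whose call was 317 bp long against 114 bp in pair 1. Region 1, at chromosome 17: 77316497-77316560, was listed in pair 3 alone and stood at 0.862 in the overexpressing and 0.499 in the control library, with 5 cytosines. Among the listed regions of the gene it was the most methylated in both groups, and levels outside listed regions are not known.

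**Figure D2:**
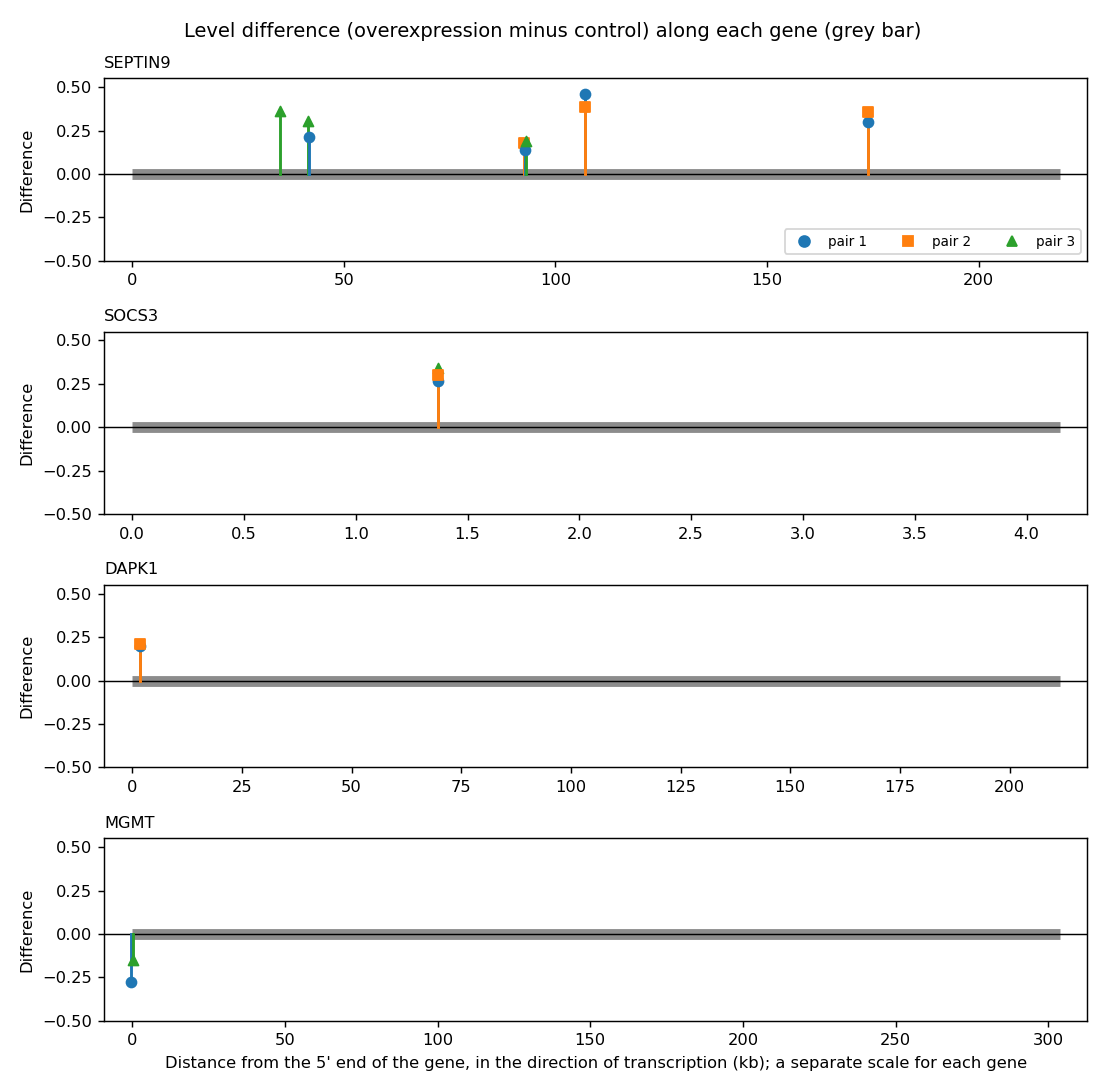
Difference in level, overexpression minus control (fraction, y axis), of each listed region at its distance from the 5′ end of the gene (kb, x axis, a separate scale for each gene drawn as a grey bar); colour and marker give the pair. SEPTIN9 has gains at 5 places along its 219 kb, while the regions of DAPK1 and MGMT sit at the 5′ end of genes of 211 kb and 304 kb.

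SOCS3 is a short gene, of 4148 bp on the minus strand of chromosome 17 at 78356778-78360925, and had 1 region, listed in every pair with almost the same ends. It lay at chromosome 17: 78359518-78359594 in pair 3 and 78359519-78359594 in pairs 1 and 2, 73 bp downstream of the internal RefSeq start printed above and 1331 bp downstream of the 5′ end of the gene. Levels were 0.771, 0.774 and 0.806 in overexpressing libraries 1, 2 and 3, against 0.505, 0.472 and 0.463 in control libraries 1, 2 and 3. Every overexpressing library stood well above every control, and the libraries of a group lay close together. The means were 0.783 ± 0.0193 and 0.480 ± 0.0217 (SD, n = 3 each), and the difference was 0.304 ± 0.0381 (SD, n = 3 pairs). The controls were already part-methylated: their SOCS3 level stood above 91.0%, 88.7% and 87.5% of the control levels at gains of pairs 1, 2 and 3. Its 13 or 14 CpG cytosines over at most 77 bp made it denser than 79.3% to 81.7% of listed regions. SOCS3-DT, a noncoding RNA gene on the other strand, has an annotated end within 1 kb of this region.

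DAPK1, on the plus strand of chromosome 9 at 87497228-87708634, had 1 region, at chromosome 9: 87499033-87499123 in pair 1 and 87499034-87499123 in pair 2. Its first base lay 1805 bp from the 5′ end of the gene and 451 bp downstream of the nearer of its 2 RefSeq starts in the table. Levels were 0.227 and 0.257 in overexpressing libraries 1 and 2, against 0.0288 and 0.0495 in control libraries 1 and 2. As at SEPTIN9 region 3, the controls were close to unmethylated, lower than all but 5.26% and 15.0% of the gained regions of pairs 1 and 2. The differences of 0.198 and 0.208 exceeded 23.7% and 27.9% of the gains of their lists. Pair 3 listed no region in DAPK1, which says only that none was called there.

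**Figure D3:**
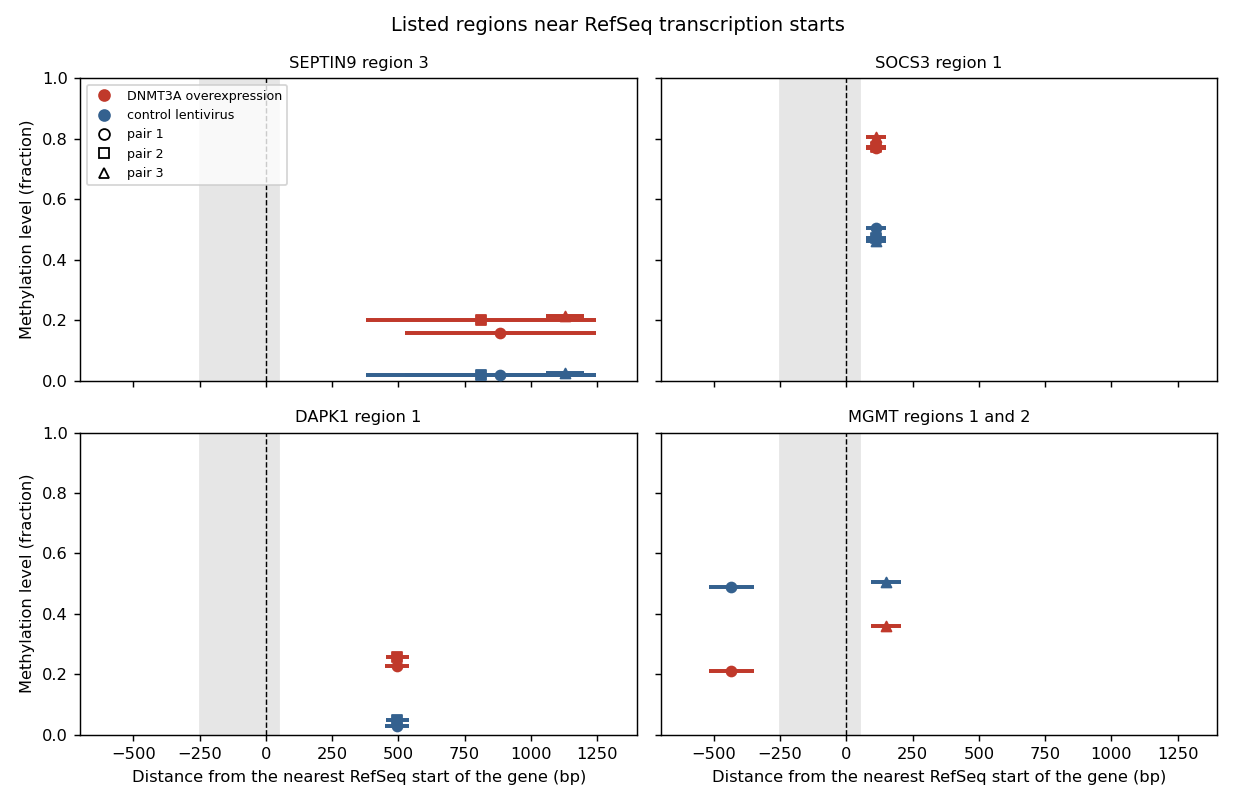
Methylation level (fraction, y axis) of the listed regions closest to a RefSeq start, drawn as bars from their first to their last base at their distance from that start (bp, x axis, positive downstream), in overexpressing (red) and control (blue) libraries; markers give the pair and grey shading the RefSeq start window. The gains at SEPTIN9 region 3, SOCS3 and DAPK1 lie downstream of the shaded window, and the 2 MGMT regions lie on either side of it with the control above the overexpressing library.

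MGMT, on the plus strand of chromosome 10 at 129467241-129770983, differed from the other 3 genes in direction, and its 2 regions did not overlap. The pair 1 region, at chromosome 10: 129466722-129466892, lay upstream of the only RefSeq start in the table, from -519 to -349 bp. It stood at 0.212 in overexpressing library 1 and 0.490 in control library 1, a difference of -0.277 over 36 CpG cytosines. The pair 3 region, at chromosome 10: 129467333-129467446, lay 92 to 205 bp downstream of the start. It stood at 0.359 in overexpressing library 3 and 0.507 in control library 3, a difference of -0.147 over 21 CpG cytosines. Both controls were thus about equally methylated at positions on either side of the start. The CpG-dense upstream run printed above lies between them and held no listed region. The regions had 21.1 and 18.4 cytosines per 100 bp, against list medians of 10.9 and 11.1. Among losses, the pair 1 difference exceeded 50% of the losses of its list and the pair 3 difference 11.5%. Since neither region recurred, and pair 2 listed none, these losses rest on 1 pair of libraries each.

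**Figure D4:**
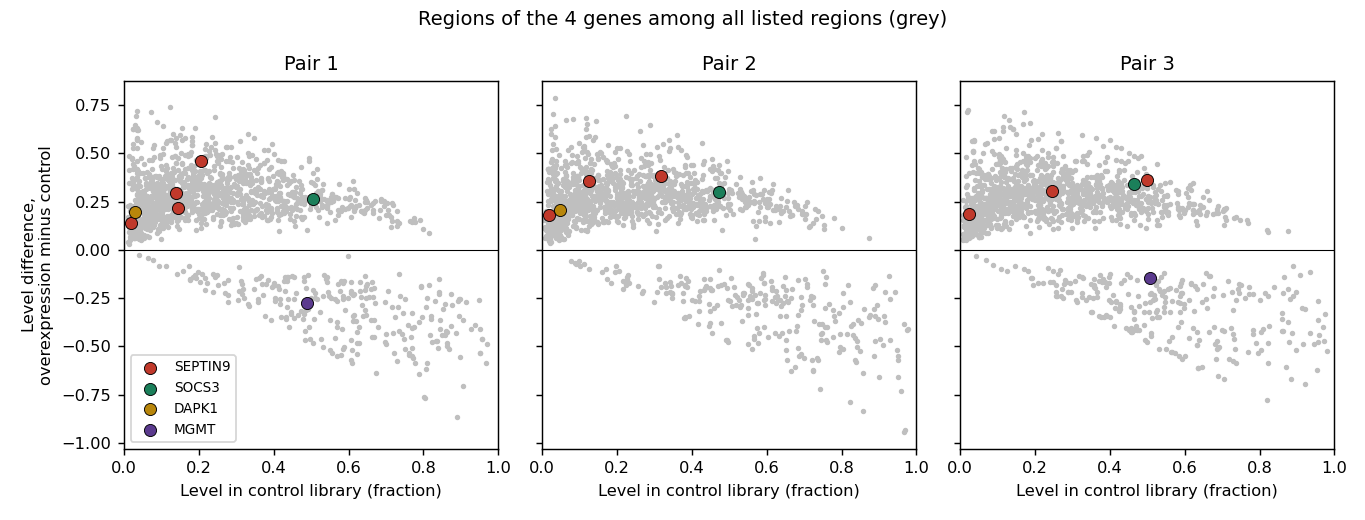
Level in the control library (fraction, x axis) against the level difference, overexpression minus control (fraction, y axis), for all listed regions of each pair (grey) and those of the 4 genes (coloured); each point is 1 region in 1 pair. SEPTIN9 region 3 and DAPK1 sit at the low end of control levels, SOCS3 between 0.463 and 0.505, and MGMT below zero difference.

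Distance to transcription starts, which played no part in the choice of windows beyond their placement on whole genes, differed among the members. The starts used were those of the 35116 windows above, which hold none for LOC124904062, the noncoding gene around SEPTIN9 region 4. Distances to starts of such genes are therefore not counted. The 3 SOCS3 calls, the 2 DAPK1 calls and the 2 MGMT calls lay within 1 kb of a start used. So did the longer calls of SEPTIN9 region 3, in pairs 1 and 2. The other SEPTIN9 calls lay 1057 to 12414 bp away from these starts. In the whole lists 15.97%, 16.7% and 17.8% of the gains of pairs 1, 2 and 3 lay within 1 kb of such a start. For the losses the shares were 29.7%, 30.4% and 32.3%. Median distances were 10249, 10547 and 9639 bp for gains and 8423, 8591 and 6657 bp for losses. No test was made of the members against these values, because the genes were picked with their regions known.

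Other genes of the same kinds were counted, with regions within 1 kb of the gene. Of 88 other genes often methylated in cancers that could be matched, 13 (14.8%) had a listed region, beside 8.84% of all 20056 protein-coding genes, with 16 regions higher and 10 lower. Higher regions were thus 61.5% of this list's regions, set beside the 81.1% to 82.1% of the whole lists, and the losses came from 4 genes. Without pair 1 the list had 10 higher and 5 lower regions, and without pair 2 it had 6 lower. Only 1 of the 88 genes, CYGB, had regions higher in at least 2 pairs, and 2, TERT and EPB41L3, had regions lower in at least 2. Among all protein-coding genes 2.42% had regions higher in at least 2 pairs and 0.269% had regions lower. These lists were drawn up with earlier results of the data known, and the counts are small. Whether this list differs from all protein-coding genes or from the whole lists was not tested.

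CYGB, which encodes the globin cytoglobin, had 5 higher regions over the 3 pairs, with differences from 0.247 to 0.320. These were not all separate places. The calls of pairs 1 and 2 at chromosome 17: 76530038-76530149 overlapped. The pair 1 call at 76532775-76533496 contained the remaining calls of pairs 2 and 3. TERT, the catalytic subunit of telomerase, had 4 lower regions over the 3 pairs, with differences from -0.619 to -0.201. At the TERT place listed in pairs 1 and 3, which began at chromosome 5: 1277527 in pair 1, levels were 0.311 and 0.331 in overexpressing libraries 1 and 3, against 0.564 and 0.532 in control libraries 1 and 3. EPB41L3, a membrane skeleton protein gene described as a tumour suppressor, had 4 lower regions in pairs 1 and 2, with differences from -0.271 to -0.166. The pair 2 region among them overlapped a pair 1 region. EPB41L3 also had 1 higher region in pair 1. The regions lower at TERT and EPB41L3 had control levels of 0.359 to 0.807. The median control level of all losses was 0.587, 0.596 and 0.547 in pairs 1, 2 and 3. A methylated control is thus usual among listed losses and does not set these genes or MGMT apart.

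Relatives of the 4 genes had listed regions at shares of 8.33% of 12 septin genes, 10.3% of 29 cytokine signalling genes, 12% of 25 cell death genes and 5.26% of 19 repair genes, near the 8.84% of all protein-coding genes. Of the 12 other septin genes only SEPTIN1 had a region, with a difference of -0.226 in pair 1. Among 29 genes of the SOCS family and of cytokine signalling, SOCS2 had a region higher by 0.0877 in pair 1, and a place just beyond the 3′ end of STAT3, the factor that SOCS3 restrains, was higher in every pair. There the levels were 0.598, 0.703 and 0.621 in overexpressing libraries 1, 2 and 3, against 0.331, 0.324 and 0.311 in control libraries 1, 2 and 3. In pair 2 that same region also lay within 1 kb of STAT5A, and so counts for both genes. Without the 1 kb flank this list had 1 higher region in place of 5, and without pair 1 or without pair 2 it had 3.

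Among 25 death-associated kinase and apoptosis genes, DAPK2 and DAPK3 had no listed region. TRADD, an adaptor of the tumour necrosis factor receptor, was higher in pairs 1 and 3, at 0.371 and 0.466 in overexpressing libraries against 0.213 and 0.215 in the controls. The death receptor gene TNFRSF10A had a region lower in pair 1, at 0.0440 in the overexpressing library against 0.269 in the control. It also had a region higher in pair 3, at 0.439 against 0.236. These calls overlapped at their ends, so the pairs listed the same joined place in opposite directions. TNFRSF10C had a region higher in pair 2. Without the 1 kb flank this list had 2 higher and 0 lower regions in place of 4 and 1. Without pair 1 its lower region was gone, and without pair 3 it had 2 higher. Of 19 genes that repair alkylated or mismatched DNA, the process in which MGMT acts, 1 gene, EXO1, had a region, higher by 0.303 in pair 3.

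**Figure D5:**
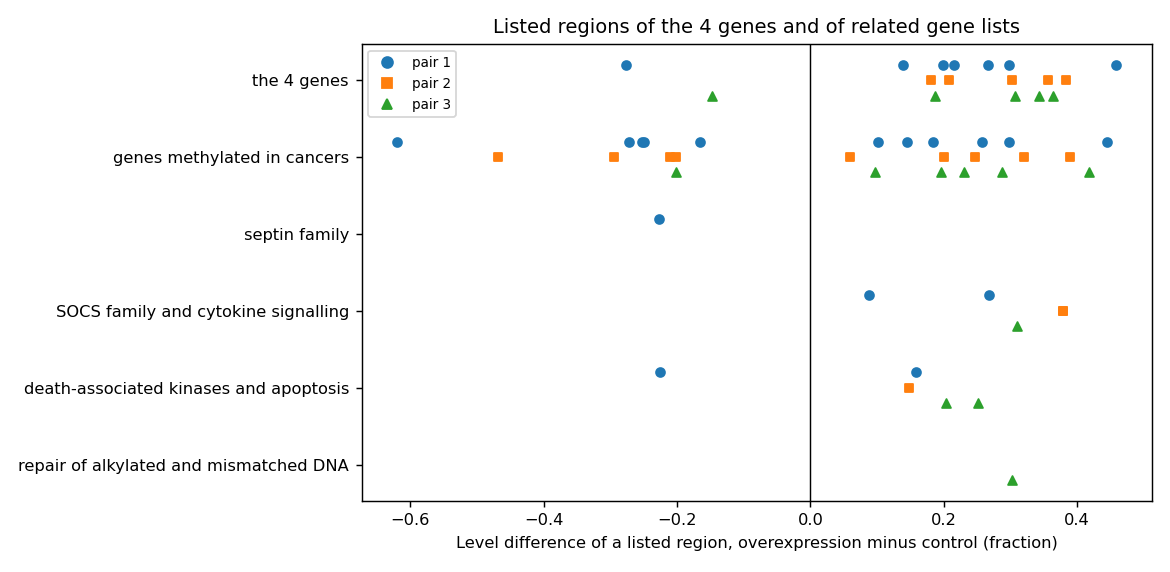
Level difference of each listed region, overexpression minus control (fraction, x axis), for the 4 genes (top) and for 5 lists of related genes (rows below), each point 1 region in 1 pair, with colour and marker giving the pair; a region near 2 genes of a list is drawn once over itself. The 4 genes have 15 points above zero and 2 below, and the list of genes methylated in cancers has 16 above and 10 below.

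The gene that was overexpressed also had listed regions. In DNMT3A 4 regions were listed, all lower. The same place, ending at chromosome 2: 25248133, was listed in every pair, with differences of -0.263, -0.288 and -0.239 in pairs 1, 2 and 3. The remaining region, at 25244126-25244178, was listed in pair 3 alone, with a difference of -0.114. As the vector sequence was not analysed here, the cell's own gene and an introduced copy cannot be told apart. A level is a mean over all DNA molecules of a library, so a few fully methylated molecules and many partly methylated ones cannot be told apart at any region above.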

How the data were processed

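RRBS libraries of HepG2 cells were used, 3 per group, grouped by their titles. Per the file headers, the authors gave each region's mean methylation level in both libraries as a fraction from 0 to 1, a signed difference and an area score. The authors' mapping summary holds deposited counts of total and mapped reads and percent values of mapping rate and MspI cutting efficiency. Per the submitters' processing notes, hg38 was the build. No source used here gives the aligner, the region caller or its thresholds. The deposited difference equalled the overexpressing minus the control level in all 4344 regions (tolerance 1e-12).

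The deposited number of CpG sites was checked against RefSeq sequence at 113 regions inside a start window: 88 had more sites than CpG dinucleotides, 71 had exactly the CpG cytosines of both strands and 0 had more. Sites are therefore called cytosines here, and all 113 began and ended in a CpG. Columns of per-sample values left unused number 0.

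Regions were matched to gene windows and to GRCh38.p14 RefSeq genes and starts with pandas 2.3.3 in Python 3.11.15, and joined across lists when they overlapped by at least 1 bp; the joining was tested on simulated regions. RefSeq start windows span 250 bases before to 50 after a start. No test was made, because the levels chose the regions. All regions of the 4 genes are named; of other lists, genes with regions in at least 2 pairs in 1 direction, and any singled out beyond these were chosen after their values were seen. Members and lists were chosen with earlier results of these data known. Alternatives were a minimum difference, a minimum of sites, other windows, overlaps and weights, and leaving out each pair.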

Additional observations from a re-analysis of the deposited data

How the results depend on the processing

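No paired analysis was possible because no test was made: each list already compares libraries of the same number. Each of the 4 genes had listed regions of 1 direction only, so alternatives that drop or reweight regions could not change a gene's direction. The windows with 10 kb flanks could not add regions either, because the nearest listed region outside any window lay 60.4 kb away. Requiring an absolute difference of at least 0.2 left 1 lower region, and taking the RefSeq extent of the genes without flank also left 1, since the upstream MGMT region then falls outside. The mean difference over SEPTIN9 regions was 0.289 with equal weights, 0.212 weighted by CpG cytosines, 0.340 with the minimum difference and 0.268 with at least 6 cytosines. Leaving out each pair in turn gave 9 to 11 higher regions, 1 to 2 lower ones and 2 to 5 regions listed in at least 2 pairs. The other alternatives run on the 4 genes stayed within 1.5 times of a count or within the spread between pairs. Without reads per region, regions could not be filtered or weighted by depth.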
